A study of Mus musculus with 60 samples.

Results

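Sim1 and Sim2 are the 2 members of the Single-minded family of transcription factors, and the mark measured over them was trimethylation of lysine 27 of histone H3 (H3K27me3), 2 genes of the 21911 protein-coding genes annotated on the chromosomes used. H3K27me3 had been mapped by CUT&RUN, in which an antibody brings a nuclease to its target on chromatin and the cut fragments are sequenced, in C3H 10T1/2 cells, a mouse line of mesenchymal progenitors. The cells had been transduced with a lentivirus and expressed, beside their own histone genes, a human histone H3 with an HA epitope tag from the EF1 promoter. The transgene was wild type (H3WT) or a mutant with cysteine in place of 1 arginine of its tail, namely H3R2C, H3R8C, H3R17C and H3R26C, so that H3WT cells carried the tag, the vector and the selection as well. Each group had 3 labelled replicates, of which 2 had lists with identical values, and these were counted as 1 library. This left 9 H3K27me3 lists, with 2 libraries of each genotype except H3R17C, which had 1 because the file name of its replicate 1 gave another mark. Anti-HA lists, which show where the tagged histone lies, numbered 10. The study describes its CUT&RUN replicates as biological ones, and errors here describe the spread between the distinct lists.

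The genes were chosen by their H3K27me3 peaks in H3R2C and H3WT, which differed over them, and every value of that contrast below is a description without a test. The gene body with 50 kb on each side is called the window. A start was called marked when a peak lay within 1 kb of it. The scaled signal of a region is the total signal of the peaks over it, divided by the median of the same quantity over 5589 regions called in the libraries of H3WT, H3R2C, H3R8C and H3R26C, so that a value of 1 is a typical shared region.

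Single-minded proteins are basic helix-loop-helix proteins with PAS domains, and they bind DNA as dimers with ARNT or ARNT2. The founding member directs the midline of the fly nervous system. In mammals Sim1 is needed for neurons of the paraventricular and supraoptic nuclei of the hypothalamus, and its loss on one allele causes overeating and obesity. Sim2 is expressed in parts of the brain, in muscle and in epithelia, and its human counterpart lies on the chromosome that is present in an extra copy in Down syndrome. H3K27me3 is set by Polycomb Repressive Complex 2 and typically covers CpG-rich starts of developmental regulators in cells that do not use them. No RNA was analysed here, so the lists say nothing of the expression of either gene.

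Sim1 (ENSMUSG00000019913.4) lies on the plus strand at chr10:50894754-50989152 of mm10, has 11 exons in its full transcript and a window of 194 kb. A second start, that of the full transcript, lies 897 bp inside the first. Sim2 (ENSMUSG00000062713.8) lies on the plus strand at chr16:94084931-94127032, also has 11 exons, and has a window of 142 kb. One stretch of each gene is shown. That of Sim1, chr10:50894398-50894697, ends just before the first RefSeq start and was under peaks over all 300 bp in the 7 lists outside H3R2C and over 0 bp in both H3R2C lists. No GENCODE exon overlaps it, although RefSeq places there the beginning of an antisense non-coding RNA, A230054N11Rik. That of Sim2, chr16:94093101-94093400, lies in an intron and held the highest 50-bp bin of the largest peak of the window in 6 of the 7 lists that had peaks there. It too was under peaks over 300 bp in those 7 lists and over 0 bp in both H3R2C lists. Its place was set by the highest bins of 6 of those lists, and H3R2C had no peak anywhere in the Sim2 window. That contrast was therefore fixed by the choice of the stretch. Both stretches are given on the plus strand from the GRCm38.p6 genome, the same assembly as mm10, with CG dinucleotides in capitals.
Sim1: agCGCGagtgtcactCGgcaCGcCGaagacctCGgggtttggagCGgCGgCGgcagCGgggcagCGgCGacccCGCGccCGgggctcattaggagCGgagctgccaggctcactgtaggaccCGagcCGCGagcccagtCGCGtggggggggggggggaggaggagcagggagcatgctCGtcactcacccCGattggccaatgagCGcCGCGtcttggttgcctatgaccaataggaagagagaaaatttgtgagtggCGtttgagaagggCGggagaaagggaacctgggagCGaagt
Sim2: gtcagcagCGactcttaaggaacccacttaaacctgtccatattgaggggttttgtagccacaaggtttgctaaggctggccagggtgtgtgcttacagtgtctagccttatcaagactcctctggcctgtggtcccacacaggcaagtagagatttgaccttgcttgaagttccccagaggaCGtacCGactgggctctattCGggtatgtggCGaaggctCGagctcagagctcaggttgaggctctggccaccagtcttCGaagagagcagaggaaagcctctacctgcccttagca

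The Sim1 stretch held 29 CG dinucleotides and 66.3% G and C, and 12.9% of 32851 RefSeq promoters of the same length held as many. The Sim2 stretch, 8.17 to 8.47 kb inside the gene, held 7, which is the median of those promoters, and 53.7% G and C. Over 2001 bp centred on the start, Sim2 held 169 CG dinucleotides and Sim1 125, whereas the median of the 1941 starts marked in both H3WT lists was 66. These counts put Sim2 at the 95.9 percentile and Sim1 at the 83.3 percentile of the marked starts. Neither ACGTG, the core of the element bound by Single-minded dimers with ARNT, nor CANNTG was found on either strand of the 2 stretches. Of the promoters, 19.6% held ACGTG and 72.3% held CANNTG, and matches of the first can lie within matches of the second.

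Sim2 carried a broad H3K27me3 domain in the 7 lists outside H3R2C and no peak in either H3R2C list. Its start region, the consensus region over the start, spanned 25.4 kb (chr16:94076601-94102050), from -8.33 to 17.12 kb around the start. The scaled signal of this region was 3.56 and 3.85 in the H3WT lists, 0 and 0 in H3R2C, 3.96 and 4.30 in H3R8C, 2.72 in H3R17C, and 3.87 and 4.56 in H3R26C. The H3R2C lists therefore lay below all others, H3R17C was the next lowest, and H3R8C and H3R26C lay just above H3WT. The mean was 3.70 ± 0.207 in H3WT (SD, n = 2). The lowest scaled signal of a peak was higher in H3R2C replicate 3, at 0.177, than in the other H3R2C list, and the mean was 20.9 times that level. This level is of a single peak, whereas the mean is of the total over a region. A value of 0 says that no peak was called and not that the mark was absent.

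Over the whole Sim2 window the H3R2C lists were again lowest and H3R17C the next lowest. Peaks covered 15.4% and 16.5% of it in H3WT, 0% and 0% in H3R2C, 16.6% and 20.6% in H3R8C, 11.0% in H3R17C, and 19.8% and 14.8% in H3R26C, so the H3R26C lists fell on both sides of H3WT. The start itself was marked in the same 7 lists. Within 1 kb of the start, peaks covered 70.0% and 100% in H3WT, 72.5% in H3R17C and 100% in the 4 lists of H3R8C and H3R26C. The 70.0% and 72.5% came from a narrow gap over the start, from -0.33 to 0.27 kb in H3WT replicates 1 and 2 and from -0.28 to 0.27 kb in H3R17C. A weaker second peak lay near the end of the gene, and its region had a mean scaled signal of 0.199 ± 0.0343 in H3WT, 0.241 ± 0.341 in H3R8C and 0.362 ± 0.0404 in H3R26C (SD, n = 2 each). That distal peak had no call in H3R2C, in H3R17C or in H3R8C replicates 1 and 2.

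**Figure D1:**
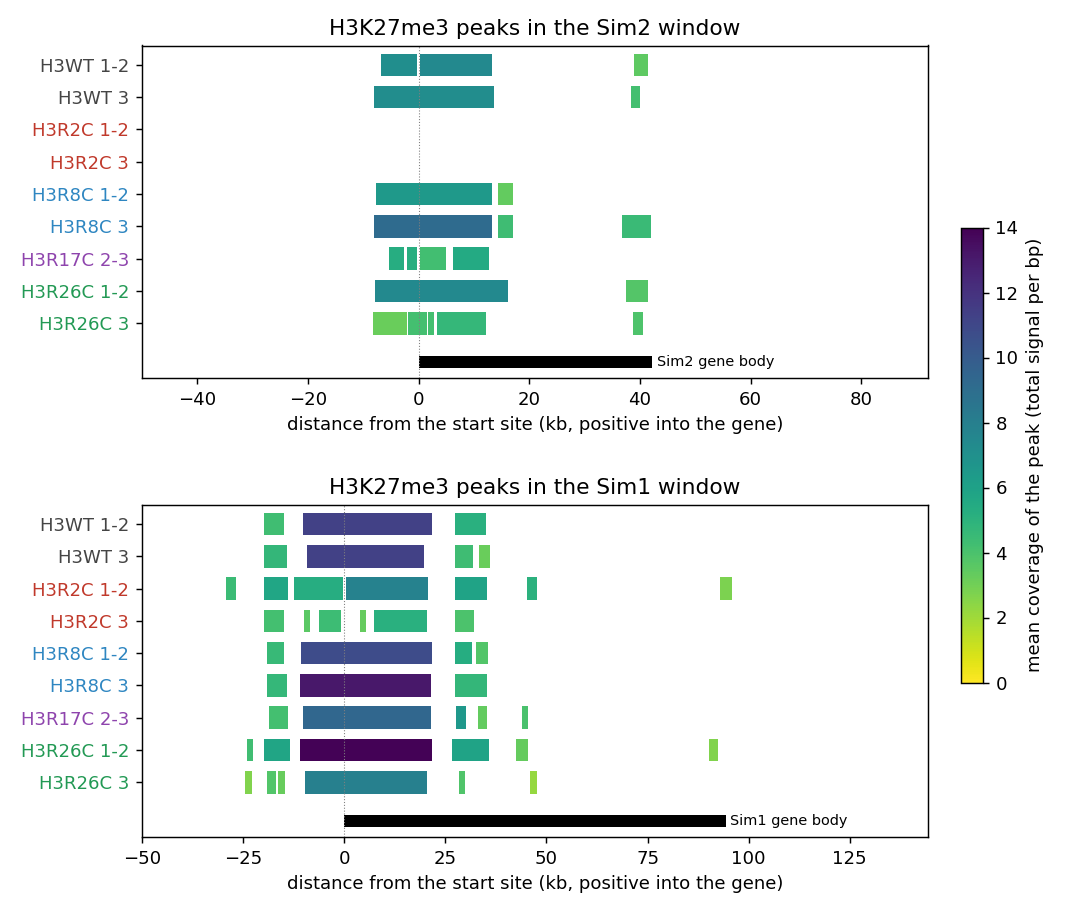
H3K27me3 peaks in the windows of Sim2 (top) and Sim1 (bottom), 1 row per list, against the distance from the start site in kb; colour gives the mean coverage of a peak and the black bar the gene body. The Sim2 rows of H3R2C are empty, and the central Sim1 domain, a single peak in the other 7 lists, is split at the start in both H3R2C lists.

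Losing the mark at the start in H3R2C was not particular to Sim2. Of the 42 chromosome 16 starts marked in both H3WT lists, 10 (23.8%) were unmarked in both H3R2C lists, against 26.1% of 1941 such starts on all chromosomes and 17.1% of 105 on chromosome 10, where Sim1 lies. In H3R26C the share on all chromosomes was 9.38% and in H3R8C 4.22%, and Sim2 was among neither. Among the 32 chromosome 16 starts marked in the 7 other lists, 8 (25.0%) were unmarked in both H3R2C lists, against 20.6% of 1272 on all chromosomes. These were Sim2, B3gnt5, Fgf12, Casr, Sidt1, Slc9c1, Hunk and Cldn14, named after their values were seen. At 3.70, the H3WT signal of the peaks at the Sim2 start was above those of the other 7, which ran from 0.314 to 1.61.

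Other regions of like strength kept more of their signal in H3R2C than Sim2 did. Chromosome 16 held 46 other consensus regions whose H3WT signal lay within 2-fold of that of Sim2, and each had a peak in at least 1 H3R2C list. Their H3R2C minus H3WT differences in log2(scaled signal + 0.25) ran from -2.44 to 0.51, with a median of -0.51, and Sim2 lay at -3.98. The value for Sim2 is set by the constant added before the logarithm. As a whole, chromosome 16 was shifted in H3R2C, with a median of -0.49 over the 381 regions called in both H3WT lists, against -0.28 over 12159 such regions genome-wide. In percent of window covered, Sim2 fell by 15.96 points in H3R2C, and 6 of the 241 chromosome 16 windows with peaks in both H3WT lists had a lower value. H3R2C emptied 18 of those windows, H3R26C 29 and H3R8C 9.

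**Figure D2:**
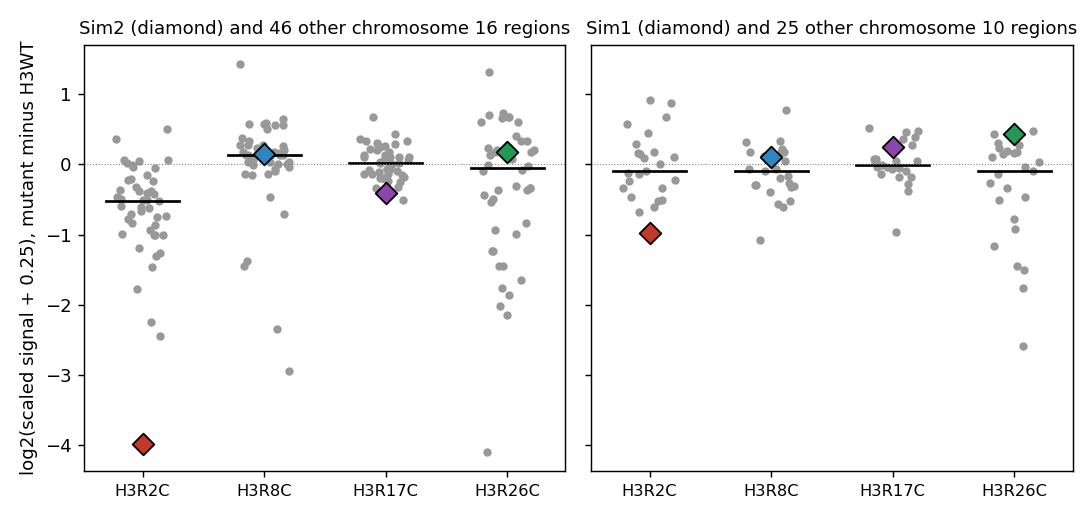
Difference in log2(scaled signal + 0.25) between each mutant and H3WT for the start regions of Sim2 and Sim1 (diamonds) and for regions of the same chromosome with an H3WT signal within 2-fold (grey points, black line at the median). In H3R2C both diamonds lie below every grey point, whereas in the other mutants they lie among them.

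The missing Sim2 domain was part of a long stretch without peaks. In H3R2C the nearest peaks lay -124.63 and 663.67 kb from the Sim2 start in replicates 1 and 2 and -125.28 and 664.72 kb in replicate 3, which leaves 788 and 790 kb free. Each H3WT list had 5 peaks inside this stretch. On chromosome 16, 30 gaps between H3R2C peaks were at least as long in either list, this one included. Cldn14, which encodes a tight junction protein, was the 1 of 15 neighbours within 1 Mb with a marked start in both H3WT lists. The region over the Cldn14 start, -76.0 kb from that of Sim2 at its midpoint, had 0.586 and 0.932 in H3WT, 0 and 0 in H3R2C, 0.639 and 0.811 in H3R8C, 0.611 in H3R17C, and 0.734 and 1.04 in H3R26C, so it too was empty in H3R2C alone.

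The next region upstream, at -131 kb, went the other way. It had scaled signals of 0.960 and 1.01 in H3WT and of 1.39 and 1.08 in H3R2C, where the lists did not overlap. The smaller region just beyond it, at -140 kb, was lower in H3R2C. Both H3R2C lists there, with 0.256 and 0.317, lay below both H3WT lists, so the rise was limited to the region at -131 kb. The region at 665 kb on the other side kept a weaker peak in H3R2C, with 0.301 and 0.205 against 0.812 and 0.797 in H3WT. The starts of Hlcs, Ripply3, Ttc3 and Dyrk1a, between Sim2 and that region, were unmarked in every list.

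**Figure D3:**
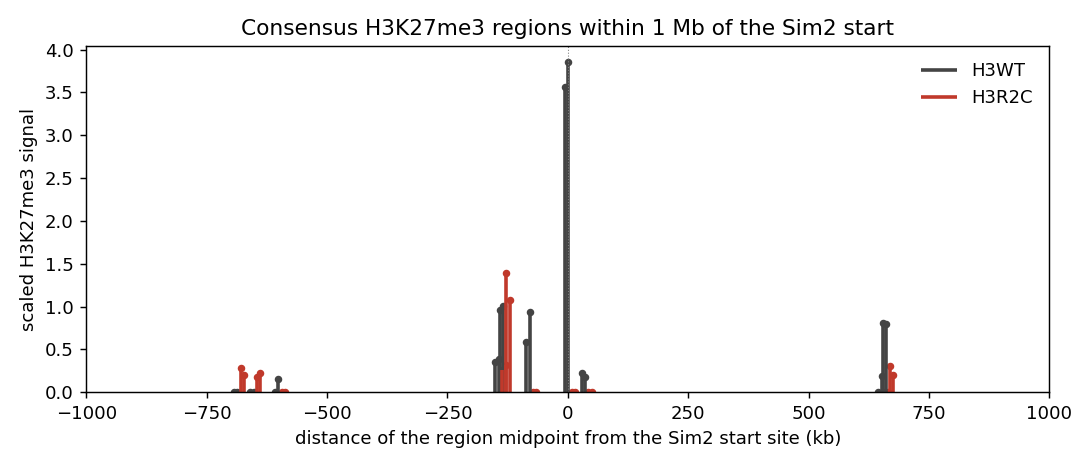
Scaled H3K27me3 signal of the consensus regions within 1 Mb of the Sim2 start in the H3WT and H3R2C lists, against the distance of the region midpoint in kb; the lines of the 4 lists are set a few kb apart so that they can be told apart. The Sim2 region, at 3.56 and 3.85 in H3WT and 0 in H3R2C, is the tallest, and the region at -131 kb is present in both genotypes.

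Sim1 kept its domain in H3R2C with a lower signal. Its start region spanned 34.0 kb (chr10:50882401-50916450), from -12.35 to 21.7 kb around the start, and was called in all 9 lists. The scaled signal was 9.05 and 8.06 in H3WT, 4.19 and 4.26 in H3R2C, 9.58 and 8.74 in H3R8C, 10.2 in H3R17C, and 9.80 and 13.8 in H3R26C. Both H3R2C lists lay below all others. The mean was 8.55 ± 0.703 over the H3WT lists and 4.22 ± 0.0482 over the H3R2C lists (SD, n = 2 each), a ratio of 0.494 or -1.02 on the log2 scale. That log2 ratio was -1.10 on the signal as deposited, -0.68 on maximum signal and -1.41 when scaled by regions of chromosome 10, settings chosen after the data were seen.

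The Sim1 peaks were lower in height in H3R2C, whereas the share of the window they covered overlapped between genotypes. Peaks covered 22.8% and 21.3% of the window in H3WT, 27.5% and 16.0% in H3R2C, 22.4% and 23.1% in H3R8C, 21.8% in H3R17C, and 28.3% and 20.0% in H3R26C. In the 7 lists outside H3R2C the centre was 1 unbroken peak of 28.9 to 32.5 kb, which ranked between 1 and 4 among the peaks of chromosome 10 by total signal. In H3R2C it was broken into 2 peaks in replicates 1 and 2 and 4 peaks in replicate 3, and the largest piece ranked 48 and 27. Their mean coverage, total signal per bp, was 3.29 to 7.77, against 7.93 to 13.9 for the unbroken peaks. Coverage is not scaled for depth.

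The break lay over the Sim1 start. The gap ran from -0.40 to 0.50 kb in H3R2C replicates 1 and 2 and from -0.80 to 3.90 kb in replicate 3, and it contains the CpG-rich stretch printed above. The wider gap also covers the second start. Peaks covered 55.0% and 9.85% of the 1 kb on each side of the start in H3R2C and 100% in each of the other 7 lists. Of the 807 starts that lay inside a peak in all 7 lists, 36 (4.46%) lay outside peaks in both H3R2C lists while a peak remained within 1 kb in both. On chromosome 10 Sim1 was the 1 such start of 45 (2.22%). By contrast, 25.4% of the 807 were outside peaks in both H3R2C lists with or without a peak within 1 kb.

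The smaller regions on either side of the Sim1 domain were not lower in H3R2C. The region from -19.8 to -13.35 kb had 0.585 ± 0.0907 in H3WT and 0.739 ± 0.154 in H3R2C. The region from 26.75 to 36.05 kb had 0.819 ± 0.206 and 0.827 ± 0.0801 in these genotypes (SD, n = 2 each). The ratios of 1.26 and 1.01 set these flanks apart from the 0.494 of the centre, and for both flanks the H3R2C and H3WT lists overlapped. Rfx6, a transcription factor of the endocrine pancreas and the 1 of 7 neighbours within 1 Mb with a marked start in both H3WT lists, was marked in all 9 lists. Its scaled signal of peaks within 1 kb of the start was 0.772 and 0.484 in H3WT, 0.375 and 0.203 in H3R2C, and 0.876 to 1.29 in the other lists. By this measure both H3R2C lists of Rfx6 were the lowest, as at Sim1. Over the whole consensus region at Rfx6, however, the scaled signal was 0.593 and 0.203 in H3R2C against 0.772 and 0.484 in H3WT. There the lists of the 2 genotypes overlapped, unlike those of the Sim1 start region.

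Chromosome 10 did not share the drop. Over the 590 chromosome 10 regions called in both H3WT lists, the median H3R2C difference was 0.11 on the log2 scale, and 9.15% of them were lost in H3R2C. Of 25 other regions with an H3WT signal within 2-fold of that of Sim1, the differences ran from -0.95 to 0.92 with a median of -0.09, and Sim1 lay at -0.97. The gap between Sim1 and the lowest of these regions is far smaller than the spread among them. In percent of window covered, Sim1 changed by -0.3 points, with a median of 2.4 points over the 457 chromosome 10 windows with peaks in both H3WT lists.

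The other mutants tested whether the difference was shared across arginines. Their contrasts with H3WT did not choose the genes, but they share the H3WT libraries with the contrast that did. Each was tested with limma over 20900 consensus regions, with Benjamini-Hochberg adjustment of p over the same regions. In none of them did the Sim1 or Sim2 start region pass an adjusted p of 0.05, where 8.46% of regions were higher and 7.26% lower in H3R26C, 3.30% higher and 2.66% lower in H3R8C, and 0.732% higher and 1.16% lower in H3R17C. At Sim2 the log2 difference was 0.17 ± 0.12 in H3R26C (SE; limma, adjusted p = 0.413), 0.15 ± 0.12 in H3R8C (adjusted p = 0.664) and -0.42 ± 0.15 in H3R17C (adjusted p = 0.334). The H3R17C contrast rests on 1 library, assumed to vary like the others. The domain was called there as 4 separate peaks, as it was in H3R26C replicate 3.

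At Sim1 the log2 difference was 0.43 ± 0.18 in H3R26C (SE; limma, adjusted p = 0.179), 0.10 ± 0.18 in H3R8C (adjusted p = 0.960) and 0.24 ± 0.22 in H3R17C (adjusted p = 0.868). Both H3R26C lists lay above both H3WT lists, by little in replicates 1 and 2 and by more in replicate 3. Without replicates 1 and 2 of H3R26C the difference was 0.67 with a limma adjusted p of 0.0319, a value that rests on 1 H3R26C library assumed to vary like the other groups. On the signal as deposited, without scaling, the H3R26C difference was -0.06 at Sim1 and -0.29 at Sim2, and that of H3R17C at Sim1 was -0.21, so these signs depend on scaling.

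**Figure D4:**
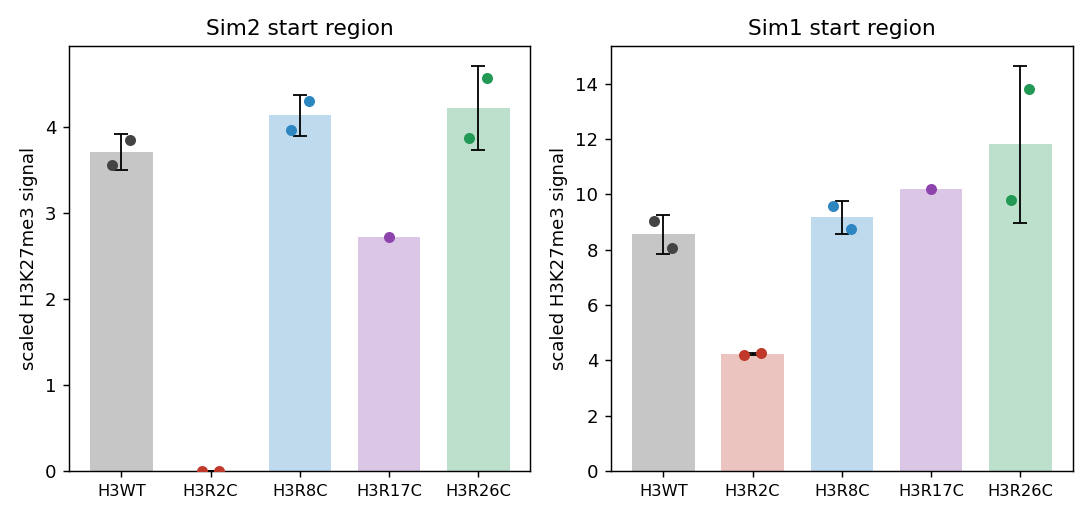
Scaled H3K27me3 signal of the Sim2 (left) and Sim1 (right) start regions by genotype; points are lists, bars means and error bars the SD where there are 2 lists (H3R17C has 1). The Sim2 bar of H3R2C is at 0, the Sim1 bar of H3R2C at 4.22 is below the other 4 genotypes.

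The wider family of PAS-domain proteins held marked and unmarked starts. Of 20 listed genes, relatives of the Single-minded proteins with their partners, coactivators and repressors, 14 were unmarked in all 9 lists and 4 were marked in both H3WT lists, beside 8.86% of all 21911 starts. Factors of the circadian clock, of the response to low oxygen and of the response to xenobiotics, such as Clock, Hif1a and Ahr, belong to this family. Of the 4 marked genes none was unmarked in both H3R2C lists, and 3 were marked in both. The values that follow are scaled signals of the peaks within 1 kb of a start. This measure leaves out pieces of a domain called apart from the start, so it also falls where a domain is called in pieces. For Sim2 in H3R26C replicate 3 it was 0.790, against 4.56 over the start region. For Sim1 in H3R2C replicate 3 it was 1.02, against 4.26. For Npas3, a neuronal factor, it was 2.40 and 2.79 in H3WT, 1.63 and 2.44 in H3R2C, 2.91 and 3.71 in H3R8C, 4.32 in H3R17C, and 4.94 and 4.53 in H3R26C. The H3R2C and H3WT lists of Npas3 overlapped. For Arnt2, the partner of Sim1 in the hypothalamus, it was 1.67 and 1.55 in H3WT, 1.02 and 0.242 in H3R2C, 1.59 and 1.46 in H3R8C, 1.27 in H3R17C, and 0.839 and 0.529 in H3R26C. Both H3R2C lists of Arnt2 were below H3WT, as were both H3R26C lists. Npas2, a clock factor, had 0.940 and 1.26 in H3WT against 0.405 and 0.555 in H3R2C. It had 0.947 and 1.05 in H3R8C, 0.571 in H3R17C, and 1.15 and 1.18 in H3R26C, so H3R17C was below H3WT as well. Hif3a, of the hypoxia pathway, had 0.148 and 0.373 in H3WT against 0.314 and 0 in H3R2C. In the other mutants Hif3a had 0.362 and 0.272 in H3R8C, 0 in H3R17C, and 0.570 and 0.351 in H3R26C.

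Genes that act with Sim1 in the paraventricular nucleus were listed as well. Of 9 such genes, 5 were marked in both H3WT lists, beside 8.86% of all 21911 starts. Arnt2, one of them, is in both gene lists. Of the 5, 1 was unmarked in both H3R2C lists, and 3 of the 9 were unmarked in every list. Pou3f2, a POU-domain factor downstream of Sim1, had 9.28 and 8.14 in H3WT, 0 and 0 in H3R2C, 11.7 and 10.2 in H3R8C, 5.07 in H3R17C, and 8.39 and 12.0 in H3R26C. Pou3f2 thus had no peak at its start in either H3R2C list, as at Sim2. Its window, however, kept peaks, which covered a mean of 21.3% in H3R2C against 34.2% in H3WT, whereas that of Sim2 had none in H3R2C. Of its H3R26C lists, 1 lay between the H3WT lists and the other above them. Otp, a homeodomain factor required for the same neurons, had 10.5 and 7.19 in H3WT, 1.61 and 1.55 in H3R2C, 6.05 and 10.4 in H3R8C, 5.30 in H3R17C, and 10.4 and 10.2 in H3R26C. Otp kept a marked start in H3R2C, as Sim1 did, with both lists below the others. Peaks covered a mean of 42.4% of the Otp window in H3R2C and 53.8% in H3WT. Of the hormone genes, Sst, for somatostatin, had 3.68 and 3.40 in H3WT against 3.34 and 2.12 in H3R2C, and Trh, for thyrotropin-releasing hormone, had 0.389 and 0.961 against 0.620 and 0.461. In H3R26C, Sst had 2.98 and 2.89, below H3WT, and Trh had 1.12 and 1.64, above it. The shares of these short lists were not tested against each other or against all starts, and 26.1% of marked starts on all chromosomes were unmarked in both H3R2C lists.

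**Figure D5:**
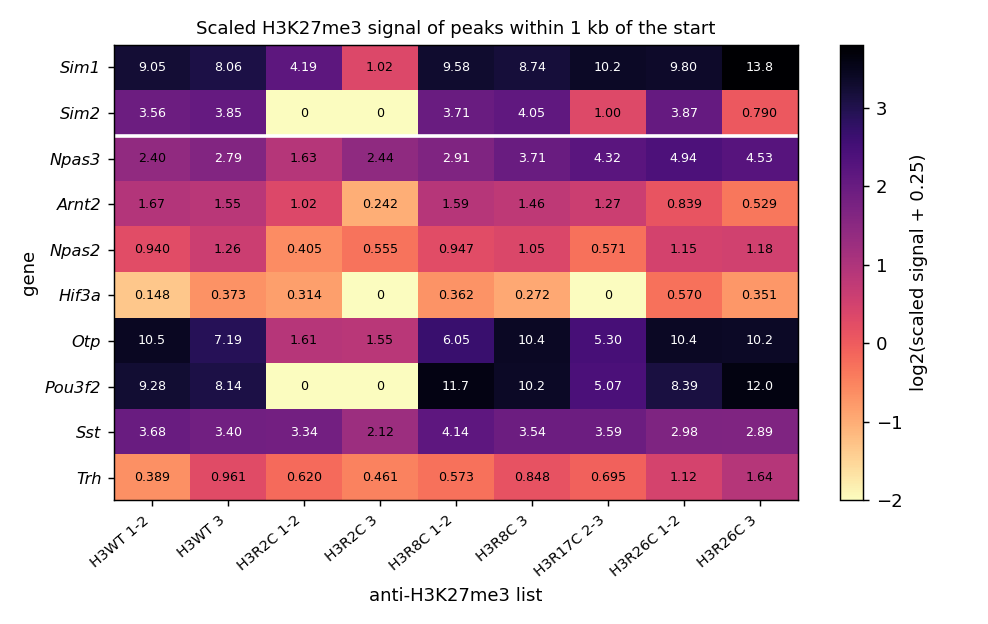
Scaled H3K27me3 signal of the peaks within 1 kb of the start, printed in each cell and coloured as log2(scaled signal + 0.25), for Sim1 and Sim2 and for the PAS-family and hypothalamic genes marked in both H3WT lists (rows), in the 9 lists (columns). Sim2 and Pou3f2 are at 0 in both H3R2C lists, and Sim1 and Otp are lower there than in any other list. A low value can also come from a domain called in pieces, as for Sim2 in H3R26C replicate 3. The window of Pou3f2, unlike that of Sim2, still held peaks in H3R2C.

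By percent of window covered over the 9 lists, genes most like Sim2 among 4114 compared included Pou4f1 (Pearson r = 0.991), Gm9376 (0.989), Sox21 (0.984) and Zic2 (0.975). Pou4f1, Sox21 and Zic2 encode transcription factors of neural development. Peaks covered 18.2% and 16.9% of the Gm9376 window in H3WT and 0% and 0% in H3R2C, as for Sim2, while Pou4f1 kept 6.30% and 5.31% of 15.1% and 17.1%. The genes most like Sim1 were Fbxl4 (0.957), E130311K13Rik (0.957), Dnajb9 (0.955), Rgs9bp (0.947) and Il23r (0.943), whose coverage was highest in replicates 1 and 2 of H3R26C and of H3R2C. Sim1 followed the same lists, and over the genome H3K27me3 peaks covered 120 and 130 Mb there, against 64.2 to 109 Mb in the other 7. The points share libraries, and these correlations are descriptions.

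HA peaks were scarce at both start regions in every list. No HA peak lay within 1 kb of either start in any of the 10 lists, although 60.4% of chromosome 10 starts and 50.8% of chromosome 16 starts had one in at least 1 list. The Sim2 start region held no HA peak in any list, so it could not be tested. The Sim1 start region held 1 in H3R2C replicates 1 and 2, with a scaled HA signal of 0.208, and 1 in H3R17C replicate 3, with 0.168. Both peaks were at or near the lowest total signal of their lists. Set against H3WT, the Sim1 region differed by 0.44 ± 0.32 in H3R2C (SE; limma, adjusted p = 0.537) and 0.37 ± 0.32 in H3R17C (adjusted p = 0.666), and by 0.00 in H3R8C and H3R26C, where no list had a peak. The Sim1 region entered this test only through its H3R2C and H3R17C peaks, so the signs were fixed by that filter. The sizes are set by the constant added before the logarithm. They were 1.19 in H3R2C and 1.06 in H3R17C with a constant of 0.05, and 0.14 and 0.11 with 1. The test therefore cannot decide whether HA differed at Sim1. Limma called 0% of 6138 regions in any HA contrast, and from 8.37% to 18.1% had an unadjusted p under 0.05.

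Elsewhere in the windows the HA peaks of H3WT and H3R2C were set beside those of their chromosome. In the Sim2 window they covered 13.5% and 7.28% in H3WT and 0.493% and 0% in H3R2C, with chromosome medians of 14.9%, 6.30%, 0.836% and 0.955%, so that both genotypes lay near or below what was usual for their list. In the Sim1 window they covered 0% in both H3WT lists and 3.37% and 2.21% in H3R2C. The chromosome medians were 16.0% and 5.51% in H3WT and 4.06% and 8.33% in H3R2C, so each value lay below the median of its list. The HA lists differed in kind, since the H3WT lists had median peak widths of 10.7 and 2.65 kb and the mutants 0.800 to 1.60 kb. Their part in these values was not tested.

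Of the lists as a whole, the 9 H3K27me3 lists had 20077 to 24598 peaks, and the lowest total signal of a peak ran from 3400 to 8050. After scaling, this lowest level was 0.146 and 0.148 in H3WT, 0.153 and 0.177 in H3R2C and 0.125 to 0.195 in the other lists. These levels are those of single peaks, read totals were not used and no counting interval is given. Whether the level needed for a call at Sim2 differed between H3R2C and H3WT was not tested. None of 8 genes active in mesenchymal progenitors, among them Col1a1, Vim and Prrx1, had a marked start in any list, but with 8.86% of all starts marked in both H3WT lists this count says little of the cell type.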

How the data were processed

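CUT&RUN peak lists of 30 samples (anti-HA and anti-H3K27me3) were used. Per the study's methods, the authors mapped reads to mm10 (Rsubread) and used SEACR 1.3 (stringent, normalised) to call peaks, 1 list per sample. The deposited lists give each peak's total and maximum signal (coverage units, not scaled to depth by the authors). The caller keeps a top share of blocks, so a region without a peak lies below that list's level. The submitters' processing notes also name ChIPseeker 1.28.3 and DESeq2. Duplicate removal is not given in the sources used here.

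Groups came from sample titles. Overlapping peaks of all genotypes but H3R17C were merged, and regions called in both libraries of a genotype were kept (20900 regions). Log2(scaled signal + 0.25) was fitted with limma 3.58.1 (lmFit, eBayes with trend) in R 4.3.3, with adjusted p under 0.05 as the threshold. H3R17C was fitted apart, and HA over the 6138 regions with HA peaks in at least 2 lists. The H3R17C replicate 1 list entered no comparison. The fit was tested on simulated data. Genes came from GENCODE, sequences from the GRCm38.p6 assembly. The RefSeq promoter table held 1 of the 2 members, Sim1, and Sim2 was missing from it. Genes were named from fixed lists (PAS family, hypothalamic genes, neighbours within 1 Mb, the 5 most alike), up to 6 per list among starts marked in both H3WT lists; 1 gene is not reported here. Members and lists were chosen with earlier results of these data known. The alternatives were pseudocounts of 0.05 and 1, the upper 50% of peaks, an overlap of 50%, no scaling, a minimum mean scaled signal of 0.5, maximum signal, eBayes without trend, all 3 labelled replicates, a replicate block, flanks of 0 and 20 kb and leaving out each library.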

Additional observations from a re-analysis of the deposited data

Results flagged for a closer look

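In the scaled signal of the start regions, every list of H3R2C lay below both H3WT lists. Every list of H3R26C lay above them at both genes, and every list of H3R8C did so at Sim2 only. The H3R17C list lay above them at Sim1 and below them at Sim2. At Sim1 the scaled signal differed from H3WT by -4.33 in H3R2C and by 3.25 in H3R26C. At Sim2 it differed by -3.71 in H3R2C, by 0.425 in H3R8C and by 0.510 in H3R26C. The higher values did not pass the test against H3WT, with limma adjusted p of 0.179 at Sim1 and of 0.413 (H3R26C) and 0.664 (H3R8C) at Sim2, and without scaling those of H3R26C turned to -0.06 at Sim1 and -0.29 at Sim2 on the log2 scale. These differences between mutants were not tested, since the H3R2C contrast chose the genes, and all 3 share the H3WT lists.

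The list of H3R17C replicate 1, whose file name gives another mark than its label and which entered no comparison, held 1 peak in the Sim2 window and none in the Sim1 window. The peak lay from 1.57 to 3.57 kb inside Sim2 with a total signal of 6900, against a lowest total signal of 2350 in that list, and 63.6% of the list's peaks had no more signal.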

How the results depend on the processing

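Of 138 alternative values of 8 tested differences, 132 did not reverse and kept their side of the threshold, and 1 passed an adjusted p of 0.05. The 132 include HA differences at Sim1 that fell to 0.00, for H3R2C without its replicates 1 and 2 and for H3R17C without its replicate 3. The HA differences of H3R8C and H3R26C at Sim1, at 0 in every list, are not counted. The H3R26C difference at Sim2 was -0.03 with an overlap of at least 50% and -0.29 without scaling, and at Sim1 it was -0.06 without scaling. The H3R17C difference at Sim1 was -0.21 without scaling and -0.16 on maximum signal. The cause was not tested. Leaving out 1 library gave 0.12 to 0.28 (H3R26C), 0.09 to 0.21 (H3R8C) and -0.47 to -0.36 (H3R17C) at Sim2. At Sim1 it gave 0.27 to 0.67 (H3R26C, the highest with an adjusted p of 0.0319 without replicates 1 and 2, which leaves 1 H3R26C library assumed to vary like the others), 0.01 to 0.18 (H3R8C), 0.16 to 0.32 (H3R17C), and for HA 0.00 to 0.93 (H3R2C) and 0.00 to 0.77 (H3R17C). The upper 50% of peaks and the 50% overlap left nothing to test for HA. The H3WT window coverage of Sim2 was 36.7% with no flank, 27.6% with 20 kb and 14.5% with the upper 50% of peaks, and that of Sim1 29.6% with no flank and 31.9% with 20 kb, while Sim2 stayed at 0% in H3R2C. The Sim1 log2 ratio of H3R2C to H3WT was -0.68 on maximum signal and -1.41 scaled by chromosome 10, and -1.10 to -0.93 without 1 library. Replicate numbers did not pair the libraries (r from -0.013 to 0.213 for H3K27me3 and from -0.21 to 0.129 for HA). A replicate block changed none of 6 calls, with differences of 0.17 at Sim2 and 0.43 at Sim1 in H3R26C, 0.15 and 0.10 in H3R8C, and HA differences at Sim1 of 0.44 in H3R2C and 0.37 in H3R17C. Depth limits each 0 to "no peak called at this level".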
